A study of Mus musculus with 8 samples.

Results

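The comparison described here is that of NMuMG cells transfected with siRNA against Klf4 (siKlf4) with NMuMG cells transfected with a negative-control siRNA (siControl), both kept without TGFβ. Its members are the 4 arrays titled for these groups, 2 siControl and 2 siKlf4, of the 8 arrays in the series, and the difference was measured for 19937 genes. NMuMG is an untransformed epithelial line from mouse mammary gland, used here as the subclone E9. The siKlf4 cells received a pool of siRNAs against Klf4 and no separate siRNA was hybridised, so effects of these siRNAs on other transcripts cannot be told apart from effects of losing Klf4. The other 4 arrays came from siControl and siKlf4 cells given 2 ng/ml TGFβ for 2 days and entered only the estimate of the spread, except where their values are set beside a result. The median standard deviation of a gene was 0.084 with siControl and 0.086 with siKlf4, but 0.058 and 0.059 in the same order with TGFβ. P-values and standard errors thus rest in part on arrays that varied less than those compared. With the 4 arrays alone, 1484 genes were higher and 1415 lower at a limma adjusted p below 0.05, against 1990 and 1936 with all 8. Values are normalized log2 levels from whole-transcript arrays, on which 1 unit is a doubling, and the number of arrays limits their precision. Whether a group's arrays stem from separate cultures is not stated in the labels, so that p-values rest on a spread between arrays that could be technical alone.

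Klf4 is a zinc finger transcription factor of the Krüppel-like family, expressed in differentiated epithelia such as those of gut, skin and mammary gland. It binds GC-rich and CACCC-like elements and can activate or repress the genes nearby. TGFβ is a secreted cytokine that signals through receptor kinases and Smad factors, arrests the growth of epithelial cells and drives them through an epithelial-mesenchymal transition (EMT), in which they give up cell junctions and gain matrix and contractile proteins. The comparison asks which transcripts change when Klf4 is targeted and no TGFβ is added.

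Klf4 measured 8.60 and 8.43 on the siControl arrays and 8.03 and 7.91 on the siKlf4 arrays. The groups did not overlap, and Klf4 was 1.46-fold lower with siKlf4, a log2 difference of -0.54 ± 0.10 (SE, n = 2 arrays a group; limma adjusted p = 0.00369). In the group labelled siControl with TGFβ, it was lower still, at 7.46 and 7.46, and on those labelled siKlf4 with TGFβ it stood at 7.43 and 7.24. Some transcripts known to follow TGFβ were high on other arrays than those labelled with it. Fn1, encoding fibronectin, measured 9.61 and 9.70 on the siControl arrays, 12.37 and 12.35 on the siKlf4 arrays, 9.84 and 9.73 on the arrays labelled siControl with TGFβ and 12.70 and 12.73 on those labelled siKlf4 with TGFβ. Smad7, an inhibitor of the TGFβ receptor that TGFβ itself induces, measured 8.12 and 8.02, 9.41 and 9.60, 7.57 and 7.70 and 9.66 and 9.61 in the same order. Both were high on the arrays labelled siKlf4 without TGFβ and not on those labelled siControl with TGFβ. Others differed from siControl in the same direction under both labels. Cdkn2b, an inhibitor of cyclin D kinases that TGFβ induces, measured 8.28 and 8.33 with siControl, 9.81 and 9.89 with siKlf4 and 8.71 and 8.79 under the label siControl with TGFβ, Cdh2, encoding N-cadherin, 8.83 and 8.83, 9.87 and 9.80 and 9.61 and 9.58, and Tnc 5.36 and 4.90, 9.76 and 9.93 and 6.67 and 6.53. Edn1, encoding endothelin, did not share a direction, at 7.29 and 7.21, 7.98 and 7.99 and 7.01 and 7.06. It was higher with siKlf4, and its lower level under the label siControl with TGFβ was not called (limma adjusted p = 0.175). Whether these groups of 2 arrays were exchanged was not tested and cannot be settled from the labels. All groups are therefore named as labelled, and the arrays labelled siControl with TGFβ, here the TGFβ-labelled controls, were compared with the same siControl arrays. With those arrays in the place of the siKlf4 arrays, Klf4 differed by -1.05 and 1158 genes (5.81%) were higher and 1326 (6.65%) lower. Smad7, Pmepa1 and Ldlrad4 were chosen for display after their values were seen.

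**Figure D1:**
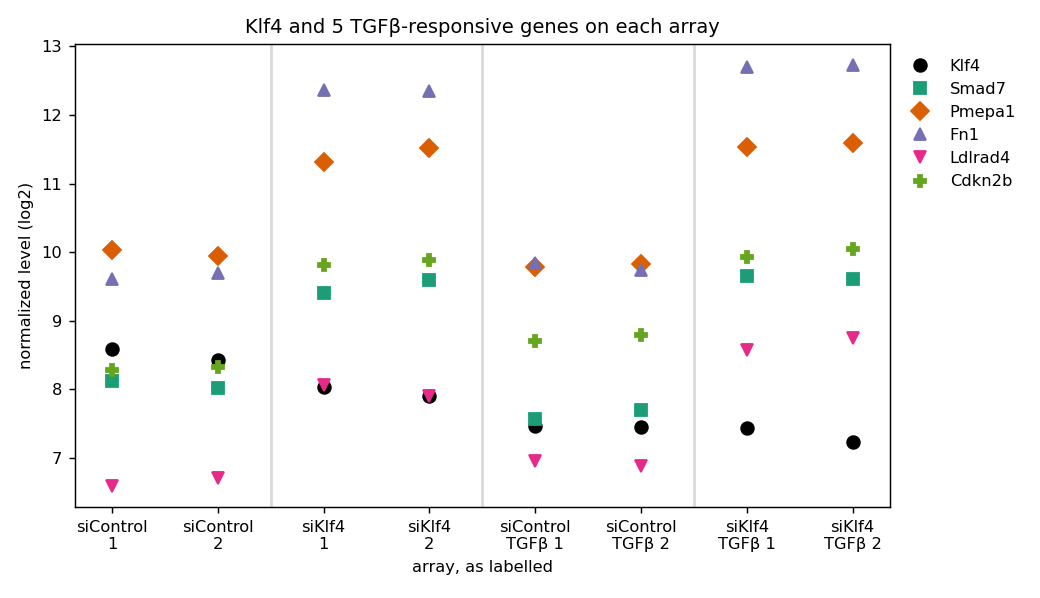
Normalized log2 level (vertical axis) of Klf4 and 5 TGFβ-responsive genes on each of the 8 arrays, as labelled (horizontal axis); each point is 1 array. Klf4 fell from 8.60 and 8.43 with siControl to 8.03 and 7.91 with siKlf4, while Fn1 rose from 9.61 and 9.70 to 12.37 and 12.35, Pmepa1 from 10.04 and 9.94 to 11.32 and 11.52, Ldlrad4 from 6.59 and 6.71 to 8.06 and 7.90 and Cdkn2b from 8.28 and 8.33 to 9.81 and 9.89; none of the 5 reached those levels on the arrays labelled siControl with TGFβ.

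Keratins of simple epithelia were high on the arrays. No leukocyte or endothelial marker was called between the groups, but their median siControl levels were low, at 3.90 and 4.24. Of 4 equal sets of genes by mean level, 1.44% of the dimmest and 7.58% of the next were called, so few calls could arise there. The leukocyte markers Cd14 and Cd68 were brighter, with siControl at 7.66 and 7.29 and at 7.16 and 7.07. Krt18, a keratin of simple epithelia, stood at 12.26 and 12.18 with siControl and at 12.77 and 12.74 with siKlf4. Krt8 rose from 13.10 and 13.10 to 13.38 and 13.40. The luminal markers called lower moved further, Krt19 from 12.65 and 12.60 to 11.75 and 11.51 and Muc1 from 10.15 and 10.11 to 7.85 and 7.95. Of 11 luminal markers, 2 were called higher and 2 lower, where the higher count was 1 without siControl array 2 or siKlf4 array 2. Of 8 basal markers, 1 was higher and 2 were lower, with 1 lower without either of those arrays. No leukocyte marker of 8 was called (limma; 2 at an unadjusted p below 0.05 and 0 with ordinary variances), but 1 was called higher without either array labelled siControl with TGFβ, with the 4 arrays alone or with a trended, robust spread. No endothelial marker of 8 was called (limma; 0 at an unadjusted p below 0.05 and 0 with ordinary variances). Linear levels of the leukocyte markers summed to 441 and 392 against 445 and 422 (siControl against siKlf4), and those of the endothelial markers to 193 and 208 against 185 and 221. Fibroblast markers summed to 303 and 364 against 429 and 481. Of 10, 2 were called higher, Col1a1 and Pdgfrb (20% called, near the 19.7% of all genes), and the median was 0.04. Col1a2 and Col3a1 were not called. The part of other cell types in the results was not tested.

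At an adjusted p below 0.05, 1990 genes (9.98%) were higher and 1936 (9.71%) were lower with siKlf4, together 19.7% of the genes tested. All 3926 had siKlf4 arrays that did not overlap the siControl arrays, which nearly follows from the call itself and adds no support to it. The share of all genes without overlap was not counted. Most differences were small. Of the calls, 353 were higher and 290 lower by at least 2-fold, 12 and 11 by at least 8-fold, and the median over all genes was 0.004. Calls were rare among dim genes. With the genes split into 4 equal sets by mean level, 1.44% of the dimmest and 37.0% of the brightest set were called. For each gene group below, the counts in the TGFβ-labelled controls are given too, and counts under another setting where one moved by over 1.5 times, with the higher count before the lower. Ordinary variances are those of each gene alone, with no moderation across genes. A share called is given with the counts of a group where it was 28.2% or less, near the 19.7% of all genes. It was 30.4% for epithelial factors, 31.7% for Wnt, 32% for interferon and 33.3% for metalloproteinase and for transporter genes. Nuclear receptors had 35.1%, fatty acid oxidation 35.5%, complement 35.7% and BMP genes 36.4%. Luminal surface genes had 36.7% and Notch and p53 genes 37.5%. In the 2 brighter sets 32.7% and 37.0% were called, so for bright genes such counts are near the background too.

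**Figure D2:**
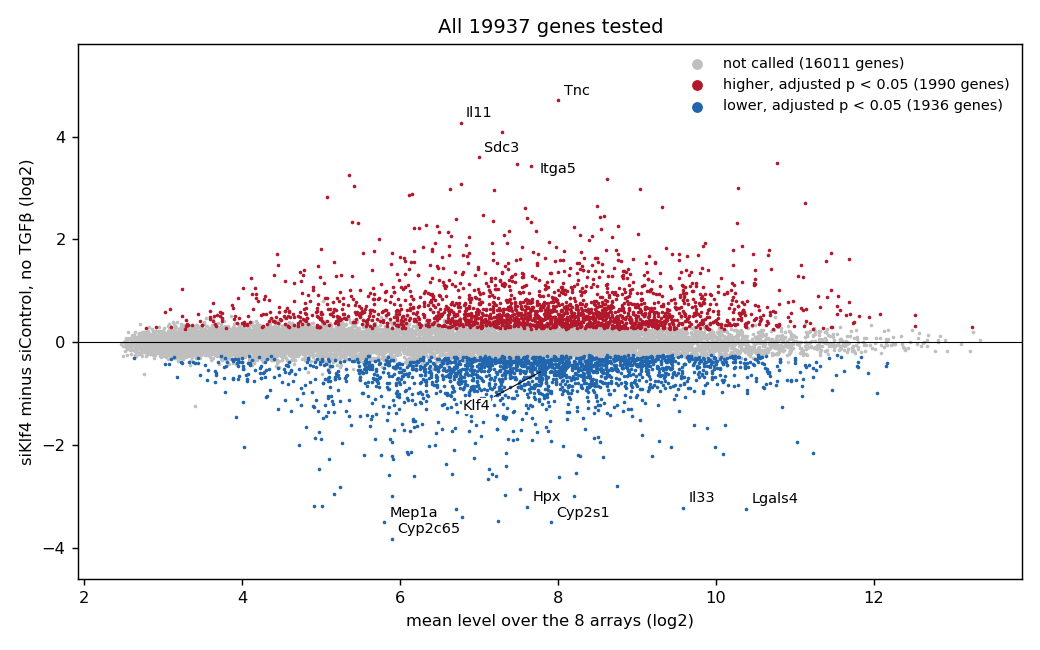
Difference between siKlf4 and siControl without TGFβ (vertical axis, log2) against the mean level over the 8 arrays (horizontal axis, log2), 1 point a gene. The 1990 genes called higher reach 4.71 (Tnc) and the 1936 called lower reach -3.82 (Cyp2c65), while Klf4 lies at -0.54.

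The largest increases were in genes of several kinds. Tnc, encoding the matrix glycoprotein tenascin C, measured 5.36 and 4.90 with siControl and 9.76 and 9.93 with siKlf4, the largest increase, of 4.71 ± 0.14 (adjusted p = 3.57e-07). Il11, a cytokine that signals through the gp130 receptor chain, went from 4.45 and 5.03 to 8.82 and 9.20, an increase of 4.27 ± 0.18 (adjusted p = 1.23e-06). Ctsw, a cysteine protease of the cathepsin family, went from 4.81 and 5.61 to 9.27 and 9.33, and Lrrc32, which anchors latent TGFβ at the cell surface, from 4.78 and 5.71 to 8.14 and 8.29. The largest decreases were mixed as well. Cyp2c65, a cytochrome P450, fell from 8.20 and 7.76 to 4.02 and 4.29, the largest decrease, of 3.82 ± 0.17. Mettl7b, encoding a methyltransferase-like membrane protein, fell from 9.07 and 9.08 to 5.64 and 5.56, and Hpx, encoding the heme-binding protein hemopexin, from 9.21 and 9.38 to 6.01 and 6.19. Sptssb, encoding a small subunit of serine palmitoyltransferase, fell from 6.78 and 6.63 to 3.55 and 3.50.

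The share of the Klf family that was called lay near that of all genes. Of 25 measured Klf and Sp genes, 5 were higher and 2 lower (28% called, 3 and 2 with the 4 arrays alone or with ordinary variances), with a median of 0.00. Klf5, which is expressed in dividing epithelial cells, fell from 9.32 and 9.26 to 8.36 and 8.21, by 1.00 ± 0.09 (adjusted p = 5.04e-05). Klf9, a factor induced by glucocorticoid and thyroid hormone, rose from 6.95 and 6.72 to 7.78 and 7.84, by 0.97 ± 0.12 (adjusted p = 4.23e-04). Klf7 rose from 7.48 and 7.29 to 8.30 and 8.29 and Klf6 from 10.31 and 10.18 to 10.91 and 10.74. Sp3 differed by -0.01 (adjusted p = 0.962). The count of higher genes was 3 without siControl array 1 and 3 without siKlf4 array 2. Under the label siControl with TGFβ, 2 were higher and 2 lower, and Klf5 stood at 9.10 and 9.18 and Klf7 at 7.65 and 7.79.

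TGFβ pathway genes were called higher more often than lower. Of 22 ligands, receptors and binding proteins, 10 were higher and 1 lower (3 and 1 in the TGFβ-labelled controls, 10 and 0 with the 4 arrays alone). Their median was 0.34, and 0.60 without the dimmest 30% of genes. Ltbp1, which stores latent TGFβ in the matrix, rose from 7.67 and 7.75 to 10.06 and 10.24, but on the arrays labelled siControl with TGFβ it stood at 6.45 and 6.38. The type I receptor Acvr1 rose from 7.32 and 7.32 to 8.74 and 8.79, by 1.44 ± 0.07 (adjusted p = 2.76e-06). The activin antagonists Fst and Fstl3 rose from 6.73 and 6.80 to 8.15 and 7.97 and from 5.92 and 6.17 to 7.37 and 7.65. The type II receptor Tgfbr2 was not called, with 8.75 and 8.72 against 8.85 and 8.81. Of 20 genes that respond to TGFβ or limit its signal, 17 were higher and 0 lower (limma; 0 at an unadjusted p below 0.05 and 0 with ordinary variances), with a median of 1.23. On the arrays labelled siControl with TGFβ the same list gave 2 higher and 4 lower and a median of 0.06. Itgb6, an integrin chain that activates latent TGFβ, rose from 6.53 and 6.50 to 8.25 and 8.23. Bhlhe40, a transcriptional repressor, rose from 8.86 and 8.57 to 10.33 and 10.31.

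Genes of the related BMP pathway were called in both directions, 6 higher and 2 lower of 22. The lower ones were Id1 and Id2, whose products keep basic helix-loop-helix factors from DNA. Id2 measured 10.84 and 10.64 against 9.35 and 8.78, a decrease of 1.67 ± 0.16 (adjusted p = 9.44e-05), and Id1 9.30 and 9.07 against 8.26 and 8.26. Bmp1, a metalloproteinase that trims procollagens, rose from 8.71 and 8.73 to 10.61 and 10.69 and the type II receptor Bmpr2 from 8.45 and 8.62 to 9.67 and 9.78. In the group labelled siControl with TGFβ, 5 were higher, and Id2 stood at 10.85 and 10.77.

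Most transcription factors of EMT and of epithelial identity were not called, and those called lay on opposite sides. Of 19 EMT factors 8 were higher and 0 lower (limma; 0 at an unadjusted p below 0.05 and 0 with ordinary variances), and of 23 epithelial factors 0 were higher (limma; 1 at an unadjusted p below 0.05 and 0 with ordinary variances) and 7 lower. Sox4, a factor of developing epithelia, rose from 9.67 and 9.60 to 10.75 and 10.79, and Hmga2, an architectural chromatin protein, from 7.51 and 7.43 to 8.62 and 8.68. Snai1, a repressor of E-cadherin, rose by 1.20 ± 0.14 (adjusted p = 3.35e-04). The epithelial factors that fell are known from gut and liver as well as from gland. Cdx2, a homeobox factor of intestine, fell from 8.75 and 8.84 to 7.06 and 7.24, by 1.65 ± 0.10 (adjusted p = 7.94e-06). Hnf4a, a nuclear receptor of liver and gut, fell from 9.48 and 9.34 to 8.21 and 8.01, Foxa2, a forkhead factor that opens chromatin, from 8.34 and 8.13 to 7.32 and 6.95, and Ehf, an ETS factor of secretory epithelia, from 8.94 and 8.71 to 7.35 and 7.10. Without siControl array 1, siKlf4 array 1 or either array labelled siKlf4 with TGFβ, 1 epithelial factor was called higher, as it was with median centring, repeated quantile normalization or a trended, robust spread. Under the label siControl with TGFβ, 1 EMT factor was higher and 2 were lower, 1 epithelial factor was lower, and Hnf4a stood at 9.70 and 9.67. Of 18 genes the study itself named, a list it chose on these samples and thus no independent evidence of direction, 10 were higher and 2 lower (3 and 1 in the TGFβ-labelled controls, 10 and 4 with a trended, robust spread), the latter 1 without siControl array 2 or siKlf4 array 1.

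Junction genes did not move as one group. Of 22 cadherins, nectins and catenins 8 were higher and 1 lower (1 and 4 in the TGFβ-labelled controls, 8 and 3 with a trended, robust spread, 7 and 2 with ordinary variances), and Cdh1, encoding E-cadherin, was not called, with 10.37 and 10.36 against 10.20 and 10.15 and a 95% confidence interval of the difference of -0.36 to -0.01. With a trended, robust spread Cdh1 was called lower (limma adjusted p = 0.0144). Ctnnd1, encoding p120 catenin, which holds cadherins at the membrane, rose from 9.31 and 9.33 to 10.15 and 10.04. Of 29 tight junction genes 6 were higher and 9 lower. Cldn4, a barrier-forming claudin, rose from 5.58 and 5.85 to 8.53 and 8.79, a 7.74-fold change, while Ocln, encoding occludin, fell from 6.63 and 6.87 to 6.02 and 5.83. The apical polarity genes Crb3 and Pard6b fell from 7.36 and 7.41 to 6.53 and 6.74 and from 8.23 and 8.12 to 7.61 and 7.79, whereas their partner Pard3 rose from 7.62 and 7.52 to 8.10 and 8.13. Cingulin and its paralogue were also split, with Cgn at 9.30 and 9.42 against 8.90 and 8.89 and Cgnl1 at 7.40 and 7.41 against 8.21 and 8.08. On the arrays labelled siControl with TGFβ 2 tight junction genes were higher, and Cldn4 stood at 5.19 and 5.56.

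Keratins and desmosomal genes gave 7 higher and 7 lower of 27 (7 and 4 with ordinary variances). Ppl, encoding the envelope protein periplakin, fell from 9.91 and 9.85 to 8.08 and 7.78, by 1.95 ± 0.11 (adjusted p = 3.87e-06), and Perp, a tetraspan protein of desmosomes, from 7.83 and 7.80 to 6.91 and 6.72. The keratins of simple epithelia differed among themselves. Krt19 fell from 12.65 and 12.60 to 11.75 and 11.51, while Krt7 rose from 9.84 and 9.72 to 10.76 and 11.01 and Krt20, a keratin of gut and urothelium, from 8.74 and 8.69 to 9.82 and 9.83. Dsp, encoding the linker desmoplakin, was not called, with a difference of 0.14 ± 0.07 and a 95% confidence interval of -0.03 to 0.31, but was called higher with ordinary variances. The arrays labelled siControl with TGFβ gave 3 higher and 3 lower, with Perp at 8.63 and 8.63 and Ppl at 9.26 and 9.23.

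Integrins, the receptors that hold cells to matrix, were called higher in 9 and lower in 2 of 21 genes (8 and 1 with ordinary variances). Itga5, the alpha chain of the fibronectin receptor, rose from 6.29 and 6.12 to 9.61 and 9.65, by 3.42 ± 0.11 (adjusted p = 6.27e-07), beside its ligand Fn1. Itgb3, a beta chain of the vitronectin receptor, rose from 6.89 and 7.12 to 9.38 and 9.55. Itga1, an alpha chain that binds collagen, fell from 6.42 and 6.51 to 5.21 and 5.21, whereas Itga2, which also binds collagen, rose from 7.42 and 7.50 to 8.89 and 9.07. Receptors for the same kind of ligand thus lay on both sides. In the group labelled siControl with TGFβ, 5 were higher and 4 lower, with Itga5 at 6.01 and 5.69 and Itga2 at 8.07 and 8.09.

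Matrix genes were called higher more often than lower. Matricellular and elastic-fibre genes were higher in 13 and lower in 1 of 25 (median 0.36), collagens, laminins and their modifying enzymes in 15 and 2 of 43 (6 and 4 in the TGFβ-labelled controls). Thbs1, encoding thrombospondin, an activator of latent TGFβ, rose from 8.91 and 8.78 to 12.26 and 12.39, and Fbln2, encoding a fibulin, from 8.88 and 8.84 to 11.84 and 11.88. Tnxb, the tenascin of loose connective tissue, was the member that fell, from 7.85 and 7.83 to 5.74 and 5.93, opposite to Tnc. Col7a1, the collagen of anchoring fibrils, rose from 6.25 and 6.53 to 8.13 and 8.13, and Lamb1 from 6.88 and 6.92 to 8.34 and 8.65. Lamb2, which can take its place in laminins, fell from 8.26 and 8.35 to 7.76 and 7.51. Of 25 syndecans and other proteoglycan genes 6 were higher and 0 lower (limma; 0 at an unadjusted p below 0.05 and 0 with ordinary variances) (24% called, 3 and 1 in the TGFβ-labelled controls), led by Sdc3, from 4.99 and 5.04 to 8.61 and 8.61. The hyaluronan synthase Has2 rose from 3.57 and 3.85 to 4.94 and 4.97. Under the label siControl with TGFβ, 6 matricellular genes were higher and 3 lower, with Tnc at 6.67 and 6.53, Thbs1 at 9.51 and 9.39 and Tnxb at 6.66 and 6.58.

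Proteases that remodel matrix were called higher in 10 and lower in 1 of 33 metalloproteinase and Timp genes (5 and 1 in the TGFβ-labelled controls, 6 and 1 with the 4 arrays alone), the latter 2 without siControl array 1. Mmp14, a membrane-bound collagenase, rose from 8.67 and 8.66 to 10.37 and 10.34, and the stromelysin Mmp10 from 5.05 and 4.96 to 6.29 and 6.70. Mmp13, a secreted collagenase, fell from 7.89 and 7.73 to 5.91 and 5.85 and stood at 9.83 and 9.77 on the arrays labelled siControl with TGFβ, so those groups lay on opposite sides of siControl. Adam9, a membrane protease, was not called, at 7.28 and 7.32 against 7.48 and 7.37, and stood at 9.47 and 9.37 on the arrays labelled siControl with TGFβ. Of 18 plasminogen and serpin genes 6 were higher and 1 lower (2 and 1 in the TGFβ-labelled controls, 5 and 0 with ordinary variances, 6 and 0 without the dimmest 30% of genes), the latter 0 without siControl array 2 or siKlf4 array 1. Serpinb9b and Serpinb9, inhibitors of granzyme B and its relatives, rose from 8.65 and 8.35 to 10.27 and 10.18 and from 7.33 and 6.88 to 8.58 and 8.30, but closely related copies can share probe signal.

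Contractile genes were higher in 21 and lower in 1 of 31, with a median of 0.69 beside 0.004 over all genes. Lmcd1, a LIM domain cofactor of muscle, rose from 7.01 and 6.66 to 9.96 and 10.05, by 3.17 ± 0.13 (adjusted p = 1.14e-06), and Capg, which caps actin filaments, from 5.57 and 5.33 to 8.45 and 8.58. Acta2, encoding smooth muscle actin, rose from 5.37 and 5.27 to 7.36 and 6.99, and Actn1, which crosslinks actin at adhesions, from 9.21 and 8.99 to 10.94 and 11.01. Mylk, the kinase of myosin light chain, was the member that fell, from 7.54 and 7.57 to 6.84 and 6.88. Genes regulated by or partnering with Yap and Taz, coactivators that respond to cell tension, were higher in 18 and lower in 0 (limma; 0 at an unadjusted p below 0.05 and 0 with ordinary variances) of 23 (median 0.51). Ankrd1, an ankyrin repeat gene of stretched muscle, rose from 10.39 and 10.12 to 11.82 and 11.72, and F3, encoding the coagulation trigger tissue factor, from 8.43 and 8.11 to 9.83 and 9.88. On the arrays labelled siControl with TGFβ contractile genes were higher in 4 and lower in 1 and the Yap and Taz genes higher in 7 and lower in 2, with Acta2 at 5.30 and 5.14 and Ankrd1 at 10.36 and 10.29.

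**Figure D3:**
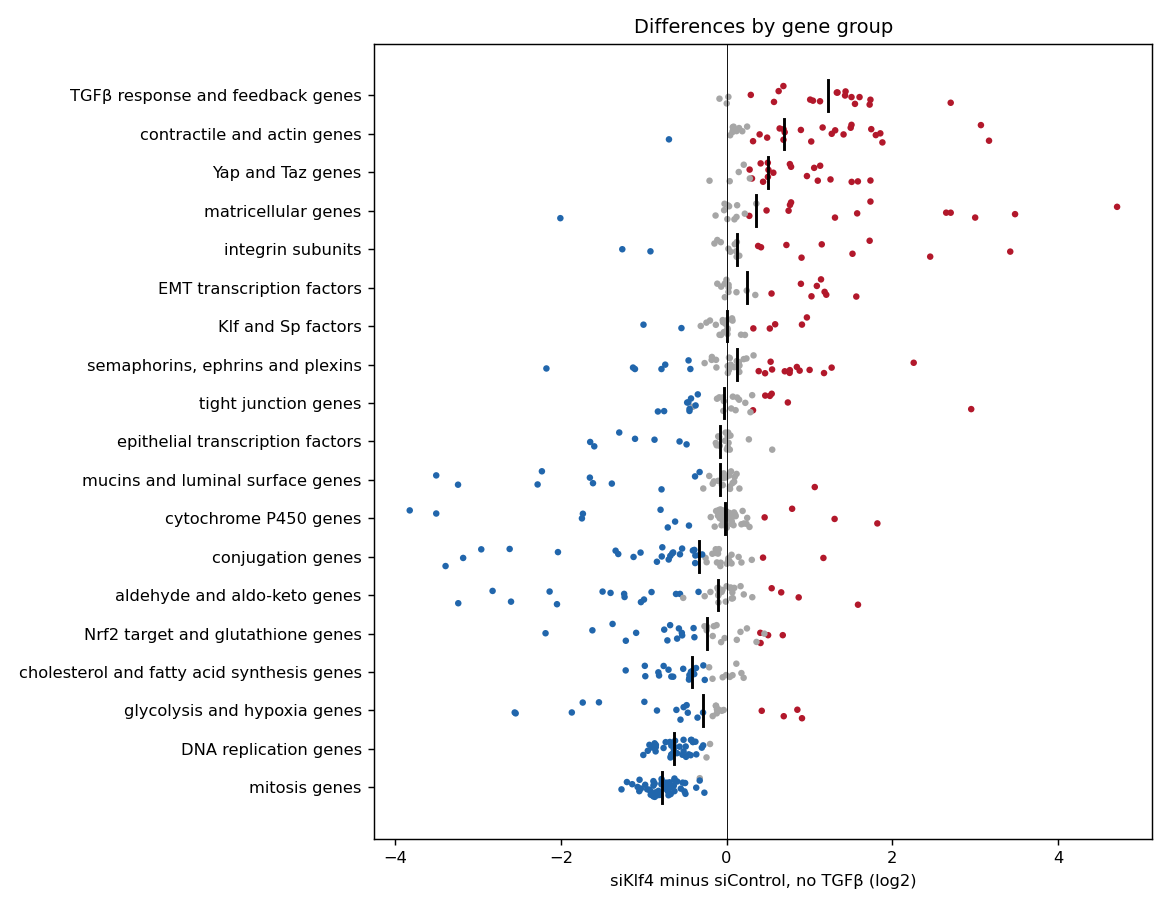
Log2 difference between siKlf4 and siControl without TGFβ (horizontal axis) for the measured genes of 19 groups (vertical axis); each point is 1 gene, red where called higher, blue where called lower and grey where not called, and the black bar is the median of the group. Medians run from 1.23 for the TGFβ response genes to -0.78 for the mitosis genes.

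AP-1 factors, which pair Jun and Fos proteins on DNA, and the JNK cascade upstream of them were higher in 4 and lower in 7 of 23 (1 and 7 in the TGFβ-labelled controls), the higher count being 2 without siControl array 2. The immediate early gene Fos fell from 8.69 and 8.61 to 8.02 and 7.75, by 0.76 ± 0.11 (adjusted p = 8.50e-04), and Atf3, a stress-inducible partner of Jun, from 8.71 and 8.67 to 8.02 and 7.79. Fosl2, a longer-lived Fos relative, moved the other way, from 7.98 and 7.89 to 8.89 and 8.94. The kinases Map3k1 and Map3k5, which act above JNK, fell from 9.13 and 9.15 to 8.06 and 7.92 and from 8.09 and 8.10 to 7.29 and 7.22. Mapk8, which encodes JNK1, was not called, with overlapping arrays at 6.73 and 6.52 against 6.78 and 6.62 (adjusted p = 0.718) and a 95% confidence interval of the difference of -0.15 to 0.29. It stood at 7.60 and 7.59 on the arrays labelled siControl with TGFβ and at 7.91 and 7.83 on those labelled siKlf4 with TGFβ, above both groups without TGFβ.

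Growth factor receptors of the EGF family were split. Erbb3, the kinase-impaired receptor, fell from 7.24 and 7.17 to 5.56 and 5.72, by 1.56 ± 0.09 (adjusted p = 4.30e-06), and Egfr rose from 9.32 and 9.25 to 9.89 and 9.82. The ligands Ereg and Btc, encoding epiregulin and betacellulin, fell from 7.82 and 7.38 to 6.54 and 6.48 and from 7.08 and 6.71 to 6.12 and 5.79. Dusp4 and Dusp5, nuclear phosphatases of ERK that its signal induces, rose from 9.22 and 9.21 to 10.20 and 10.37 and from 7.89 and 7.73 to 8.85 and 8.92, while Egr1, an immediate early gene of the same signal, fell from 8.01 and 7.99 to 6.68 and 6.46. In all 8 of 29 genes of this group were higher and 8 lower (6 and 3 with ordinary variances), the latter 5 without siControl array 1, against 4 and 7 on the arrays labelled siControl with TGFβ.

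Ligands, receptors and other genes of vessel growth and of the Notch and Wnt pathways were mostly called higher where they were called. The medians of these groups were small, at 0.02, 0.09 and 0.09. Of 28 angiogenic factors and receptors 9 were higher and 4 lower (3 and 2 in the TGFβ-labelled controls). Pdgfb and Pdgfa, chains of the platelet-derived growth factor that recruits mesenchymal cells, rose from 9.12 and 9.02 to 11.27 and 11.52 and from 7.31 and 7.42 to 9.26 and 9.57. Fgfbp1, which frees fibroblast growth factors from matrix, fell from 6.96 and 6.46 to 4.70 and 4.85, the ligand Fgf1 from 8.20 and 8.20 to 7.18 and 7.11 and the receptor Fgfr2 from 8.77 and 8.89 to 7.97 and 7.93, so 3 genes of 1 growth factor system were lower together. Of 24 Notch pathway genes 7 were higher and 2 lower (2 and 0 in the TGFβ-labelled controls, 5 and 1 with ordinary variances), the latter 1 without siControl array 2 or siKlf4 array 1. The ligand Jag1 rose from 9.51 and 9.49 to 11.18 and 11.24 and Lfng, a glycosyltransferase that tunes the receptors, from 6.69 and 6.50 to 7.54 and 7.72. The receptors differed, Notch2 rising from 9.60 and 9.61 to 10.49 and 10.58 and Notch1 falling from 6.38 and 6.43 to 5.54 and 5.71. Of 41 Wnt genes 9 were higher and 4 lower (2 and 0 in the TGFβ-labelled controls, 5 and 2 with ordinary variances), the latter 2 without siControl array 2. Lgr4, a receptor for R-spondins, fell from 9.31 and 9.02 to 7.97 and 7.63, and the receptor Fzd2 rose from 6.89 and 7.32 to 8.31 and 8.30.

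Wnt7a, a ligand of epithelia and neurons, rose from 5.55 and 5.84 to 9.09 and 9.23, by 3.47 ± 0.12 (adjusted p = 6.43e-07), and stood at 5.66 and 5.88 on the arrays labelled siControl with TGFβ. Its promoter is shown because it was among the 15 largest increases and its window holds 2 Klf-type words (GGGNGTGG on either strand, in capitals), which begin 199 and 182 bases before the start. The window runs from 250 bases before to 50 bases after the RefSeq start of transcription in GRCm38.p6 (chr6:91411304-91411603, minus strand). The word occurred in 20.5% of the 19115 promoters of genes tested, in 24.6% of those of genes called higher and in 22.6% of those of genes called lower. A match is a description of letters, not of a bound site.
Wnt7a: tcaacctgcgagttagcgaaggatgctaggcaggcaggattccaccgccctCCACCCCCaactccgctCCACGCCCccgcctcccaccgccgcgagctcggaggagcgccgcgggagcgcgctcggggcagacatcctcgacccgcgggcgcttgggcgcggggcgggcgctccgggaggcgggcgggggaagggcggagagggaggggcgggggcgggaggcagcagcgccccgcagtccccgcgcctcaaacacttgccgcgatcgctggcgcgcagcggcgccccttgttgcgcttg

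Genes that guide axons and migrating cells were called often and in both directions, 13 higher and 7 lower of 41. Plxnd1, a semaphorin receptor of vessels, rose from 7.34 and 7.30 to 9.50 and 9.66, by 2.26 ± 0.08 (adjusted p = 6.92e-07). Its ligands fell, Sema3e from 10.19 and 10.05 to 9.10 and 8.93 and Sema3c from 10.78 and 10.68 to 8.80 and 8.31. Efnb2, a membrane-bound ephrin, rose from 8.39 and 8.22 to 9.50 and 9.46, and Ntn4, a netrin of basement membranes, from 6.57 and 6.56 to 7.84 and 7.82. The arrays labelled siControl with TGFβ had 12 higher and 2 lower, with Sema3c at 11.73 and 11.62, above siControl and not below it.

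Cytokine genes were called in both directions. Of 23 genes of the IL-1 and IL-6 families 8 were higher and 2 lower (3 and 2 in the TGFβ-labelled controls). The gp130 ligands Il11 and Lif were both higher, Lif at 8.52 and 8.68 against 7.52 and 7.45, and Socs3, the feedback inhibitor of that receptor, fell from 8.78 and 8.68 to 8.10 and 8.12. Il33, a nuclear alarmin of the IL-1 family, fell from 10.92 and 10.64 to 7.88 and 7.25, by 3.21 ± 0.18 (adjusted p = 4.93e-06), but stood at 12.11 and 12.03 on the arrays labelled siControl with TGFβ. Of 26 chemokine genes 6 were higher and 4 lower (3 and 4 with ordinary variances). Ccl20, which draws dendritic cells and lymphocytes to epithelia, fell from 9.26 and 8.78 to 6.04 and 6.08, and the neutrophil chemokines Cxcl5 and Cxcl1 from 8.30 and 7.91 to 5.81 and 5.08 and from 9.39 and 9.06 to 8.14 and 8.20. Monocyte chemokines rose, Ccl2 from 8.13 and 7.69 to 9.22 and 9.19 and Ccl7 from 4.71 and 4.95 to 5.78 and 5.83. In the group labelled siControl with TGFβ, 2 chemokine genes were higher and 2 lower, with Ccl20 at 9.31 and 8.92.

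Innate defence genes were also called in both directions. Of 28 complement and acute-phase genes 5 were higher and 5 lower (3 and 0 in the TGFβ-labelled controls, 3 and 5 with ordinary variances). Clu, encoding the chaperone clusterin, rose from 10.90 and 10.89 to 12.54 and 12.50, and Orm1, encoding the plasma protein orosomucoid, from 5.98 and 5.31 to 8.11 and 7.97. Cfb, encoding complement factor B, fell from 7.89 and 7.87 to 6.20 and 6.09, and Lcn2, which sequesters bacterial iron carriers, from 6.99 and 6.43 to 4.93 and 4.73. Interferon and antigen processing genes were higher in 6 and lower in 2 of 25 (0 and 2 in the TGFβ-labelled controls, 4 and 1 with the 4 arrays alone, 5 and 1 with a trended, robust spread), the latter 1 without siControl array 1 or siKlf4 array 2. B2m, the light chain of class I molecules, rose from 9.73 and 9.56 to 10.92 and 10.66, and Tapbp, which loads peptide on them, from 9.48 and 9.49 to 10.07 and 10.09. Ifit2, an interferon-induced gene, fell from 7.19 and 7.13 to 6.50 and 6.33, so the interferon genes did not move together.

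Luminal surface genes of glandular and gut epithelium were lower in 10 and higher in 1 of 30, the latter 0 without the dimmest 30% of genes. Lgals4, a galectin of gut epithelium, fell from 12.11 and 12.08 to 9.03 and 8.69, by 3.24 ± 0.16 (adjusted p = 2.05e-06). Mep1a, a brush border metalloprotease, fell from 8.06 and 7.75 to 4.46 and 4.35, Muc1, the transmembrane mucin of mammary and other glands, from 10.15 and 10.11 to 7.85 and 7.95, and Cdhr5, a protocadherin that links microvilli, from 7.02 and 7.07 to 4.81 and 4.72. Ceacam1, an adhesion molecule of the apical membrane, was the member that rose, from 3.38 and 3.44 to 4.49 and 4.46. Under the label siControl with TGFβ, 4 were higher and 3 lower, with Lgals4 at 12.05 and 12.04 and Muc1 at 9.37 and 9.52.

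Detoxification proceeds by oxidation and then by conjugation. Oxidation by cytochromes P450 gave 4 higher and 8 lower of 48 genes (25% called, 1 and 1 in the TGFβ-labelled controls), with Cyp2s1, an epithelial P450 inducible by dioxin, at 9.81 and 9.75 against 6.32 and 6.22. Cyp1b1, a relative that oxidises estrogens, rose from 6.83 and 6.78 to 8.15 and 8.06. Conjugation genes gave 2 higher and 24 lower of 45 (median -0.33, and -0.66 without the dimmest 30% of genes). Ugt2b34, a glucuronosyltransferase, fell from 8.26 and 8.09 to 4.71 and 4.86, Sult1d1, a sulfotransferase, from 6.65 and 6.37 to 3.45 and 3.65, and Sult1c2, another of that family, from 9.54 and 9.57 to 7.18 and 6.70. Members of the Ugt2b family are similar in sequence and may share probe signal. Aldehyde, alcohol and aldo-keto enzymes gave 4 higher and 15 lower of 41. Aldh1a1, which makes retinoic acid from retinal, fell from 8.33 and 8.40 to 5.88 and 5.65, and Akr1c19, an aldo-keto reductase, from 8.17 and 8.28 to 5.21 and 4.77. Rdh10, which makes the retinal, rose from 10.67 and 10.64 to 11.54 and 11.52.

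On the arrays labelled siControl with TGFβ these genes did not lie below siControl in the same number. There the conjugation genes were higher in 8 and lower in 1, and the aldehyde and aldo-keto genes in 8 and 5. Ugt2b34 stood at 9.47 and 9.62, Sult1d1 at 7.18 and 7.21 and Aldh1a1 at 9.12 and 9.20 on those arrays. Each was above the siControl arrays, whereas the siKlf4 arrays were below them.

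Glutathione and antioxidant genes, many of them targets of the factor Nrf2, gave 4 higher and 14 lower of 31 (3 and 5 in the TGFβ-labelled controls), with a median of -0.24. Gclc, the rate-limiting enzyme of glutathione synthesis, fell from 10.58 and 10.58 to 9.07 and 8.86, by 1.62 ± 0.09 (adjusted p = 3.92e-06), and Gss, the next enzyme, by 1.38 ± 0.09. Nqo1, a quinone reductase, fell from 5.10 and 5.07 to 3.90 and 3.85, and Selenop, a selenium carrier, from 9.54 and 9.27 to 7.40 and 7.04. Hmox1, which degrades heme and is a target of the same factor, rose from 7.96 and 7.82 to 8.41 and 8.37. Exporters of conjugates gave 5 higher and 5 lower of 30 ABC and organic anion transporters (2 and 4 in the TGFβ-labelled controls, 1 and 5 with the 4 arrays alone, 3 and 5 with ordinary variances or with median centring), the higher count being 1 to 3 without any one of the 8 arrays. Abcc2, the apical exporter of glutathione and glucuronide conjugates, fell from 8.29 and 8.45 to 6.22 and 6.22. Nuclear receptors gave 9 higher and 4 lower of 37 (2 and 2 in the TGFβ-labelled controls, 4 and 4 with ordinary variances), and the higher count was 5 without either siControl array and 4 without siKlf4 array 2. Nr3c2, the mineralocorticoid receptor, fell by 1.48 ± 0.18, and Ahr, the dioxin receptor, rose from 8.22 and 8.22 to 8.90 and 8.81.

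**Figure D4:**
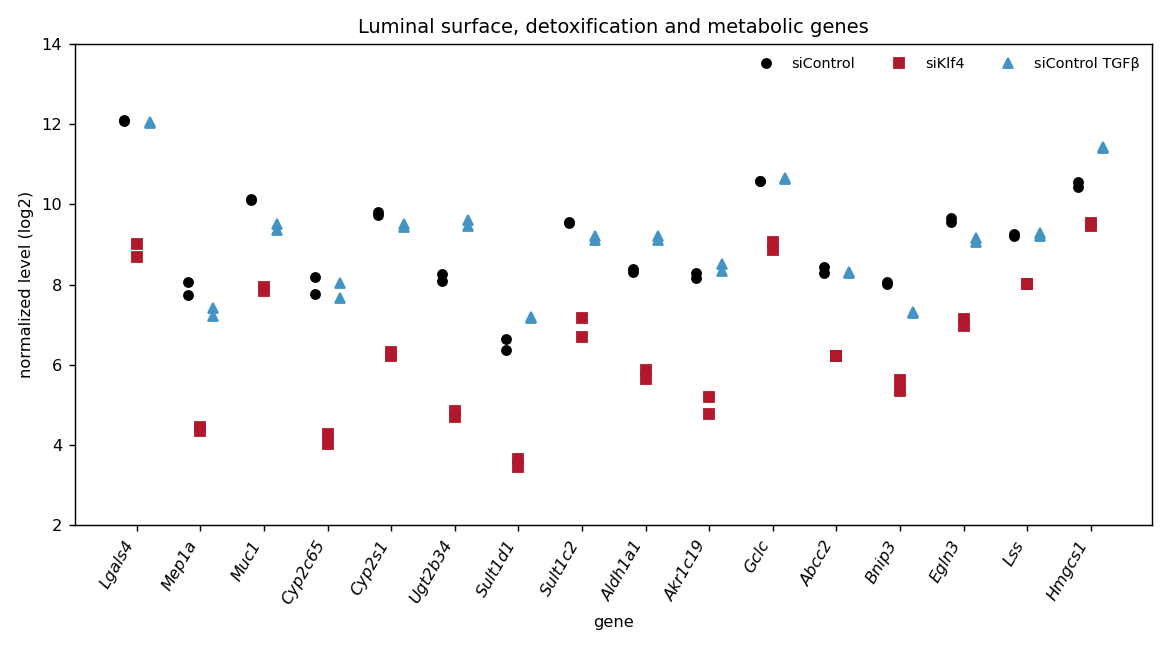
Normalized log2 level (vertical axis) of 16 luminal surface, detoxification and metabolic genes (horizontal axis) on the siControl, siKlf4 and siControl with TGFβ arrays as labelled; each symbol is 1 array, and levels are to be read within a gene only. The siKlf4 arrays lie below the siControl arrays for each gene, as for Lgals4 (12.11 and 12.08 against 9.03 and 8.69), while Sult1d1 and Ugt2b34 lie above siControl on the arrays labelled siControl with TGFβ.

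Cholesterol and fatty acid synthesis genes were lower in 20 and higher in 0 (limma; 2 at an unadjusted p below 0.05 and 1 with ordinary variances) of 29, with a median of -0.41. Lss, which closes squalene epoxide to lanosterol, fell from 9.21 and 9.25 to 8.01 and 8.02, by 1.22 ± 0.08 (adjusted p = 7.39e-06). Hmgcs1, an early enzyme of the mevalonate pathway, fell from 10.42 and 10.55 to 9.53 and 9.48, and Elovl6, which lengthens fatty acids, from 8.50 and 8.49 to 7.45 and 7.58. The desaturase Scd2 was not called, at 12.94 and 12.90 against 12.80 and 12.71, but was called lower with a trended, robust spread. In the group labelled siControl with TGFβ, 4 were higher and 1 lower, and Hmgcs1 stood at 11.40 and 11.42, above siControl.

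Fuel genes were lower more often than higher. Fatty acid oxidation gave 3 higher and 8 lower of 31 (3 and 3 in the TGFβ-labelled controls, 1 and 7 with ordinary variances), with Cpt1a, the gate of fatty acids into mitochondria, at 9.17 and 9.21 against 8.38 and 8.18. Glycolysis and hypoxia genes gave 4 higher and 14 lower of 27 (2 and 7 in the TGFβ-labelled controls), with a median of -0.28. Egln3 and Bnip3, targets of the hypoxia factor Hif1, fell from 9.56 and 9.65 to 6.98 and 7.15 and from 8.07 and 8.03 to 5.63 and 5.35, and Pdk1, a kinase that inhibits pyruvate dehydrogenase, from 7.48 and 7.35 to 5.85 and 5.50. Hk2 and Pfkfb3, which raise the flow into glycolysis, rose from 8.34 and 8.34 to 8.97 and 9.08 and from 6.82 and 6.71 to 7.71 and 7.53. Respiratory chain genes gave 11 lower and 0 higher (limma; 0 at an unadjusted p below 0.05 and 0 with ordinary variances) of 39 (28.2% called, 1 and 0 in the TGFβ-labelled controls, 0 and 5 with the 4 arrays alone, 0 and 22 with a trended, robust spread), all lower differences being small, as for Ndufa5 at 8.25 and 8.39 against 7.66 and 7.76. The lower count was 6 without siControl array 1, 5 without siKlf4 array 1 and 7 without any one array with TGFβ. Unfolded protein and Atf4 genes gave 3 higher and 10 lower of 31 (2 and 5 in the TGFβ-labelled controls, 2 and 6 with the 4 arrays alone, 7 and 14 with a trended, robust spread), the latter 6 without siControl array 1. Herpud1, a factor of protein disposal at the endoplasmic reticulum, fell from 10.24 and 10.29 to 9.18 and 9.28, and Psat1, of serine synthesis, from 11.58 and 11.49 to 10.76 and 10.83.

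Cell cycle genes were lower almost without exception. Of 40 DNA replication genes 38 were lower and 0 higher (limma; 0 at an unadjusted p below 0.05 and 0 with ordinary variances), and of 54 mitosis genes 53 were lower and 0 higher (limma; 0 at an unadjusted p below 0.05 and 0 with ordinary variances), with medians of -0.63 and -0.78. The members that missed the threshold were Orc6 (adjusted p = 0.13) and Pola1 (adjusted p = 0.202) among the replication genes and Cenpa (adjusted p = 0.0653) among the mitosis genes. Orc6 and Cenpa passed it with a trended, robust spread, and Cenpa also with median centring and without the dimmest 30% of genes. Pola1 passed it without siControl array 2 and Cenpa without siKlf4 array 2. The differences were even and moderate. Mcm10, which loads replication forks, fell from 8.67 and 8.58 to 7.54 and 7.70, by 1.00 ± 0.09 (adjusted p = 6.00e-05), and Cdc6, which licenses origins, from 8.50 and 8.55 to 7.63 and 7.63. Nek2, a centrosomal kinase, fell from 9.25 and 9.17 to 7.97 and 7.91, by 1.27 ± 0.08 (adjusted p = 6.91e-06), and Kif11, the motor that separates spindle poles, from 9.75 and 9.71 to 8.76 and 8.56. Under the label siControl with TGFβ, 32 replication genes and 19 mitosis genes were lower, with Mcm10 at 7.97 and 7.87, Nek2 at 8.79 and 8.76 and Kif11 at 9.63 and 9.54. In total RNA of a culture, fewer cells in a phase of the cycle and less transcript a cell cannot be told apart.

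Regulators of the cycle were less uniform, with 3 higher and 13 lower of 28 CDK inhibitors, cyclins and E2f genes (4 and 7 in the TGFβ-labelled controls). Cdkn2b rose from 8.28 and 8.33 to 9.81 and 9.89, by 1.55 ± 0.08 (adjusted p = 3.53e-06). Its relatives Cdkn2c and Cdkn2d fell from 8.43 and 8.35 to 7.18 and 6.89 and from 8.20 and 7.87 to 6.79 and 7.07, so inhibitors of 1 family lay on both sides. Myc, which drives growth, rose from 10.07 and 9.73 to 10.55 and 10.51, and E2f2 fell from 7.34 and 6.97 to 5.81 and 6.13. Genes of p53 and apoptosis were higher in 10 and lower in 2 of 32 (8 and 4 in the TGFβ-labelled controls, 8 and 1 with ordinary variances), the latter 1 without siControl array 1. Gadd45g, a stress gene, rose from 7.91 and 7.60 to 9.50 and 9.61, and the death-promoting Bcl2l11 and Pmaip1 from 6.87 and 6.36 to 7.88 and 8.01 and from 6.81 and 6.78 to 7.56 and 7.63. Mdm2, a direct p53 target, was not called, at 11.98 and 11.94 against 12.08 and 12.02.

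Promoter windows of lower and higher gene groups were read for 4 short words on either strand, GGGNGTGG (Klf type), TGANTCA (AP-1 type), TTTGAA (cell cycle homology region) and CCAAT (NF-Y type). No match printed below overlaps another. The RefSeq table held windows for 15562 of the 19937 genes, 19115 in all since some genes have several starts. The cell cycle word was present in 70.8% of the 48 windows of mitosis genes, against 14.8% of all windows, 12.5% of those of DNA replication genes and 15.7% of those of all genes called lower. The NF-Y word was present in 72.9% of the windows of mitosis genes, in 57.5% of those of replication genes, in 74.1% of the 27 of cholesterol and fatty acid genes and in 37.4% of all windows. The Klf word was present in 27.1%, 27.5% and 29.6% of the windows of these groups, against 20.5% of all. These shares describe the sequences, and no test was made of them.

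**Figure D5:**
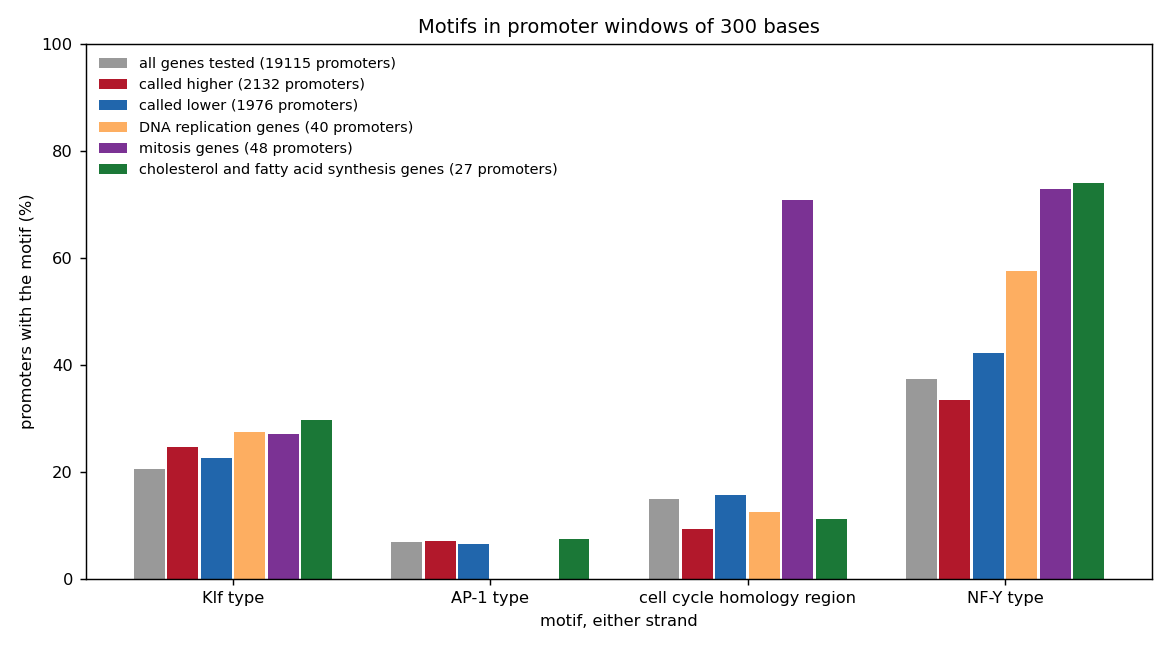
Share of promoter windows of 300 bases that hold each of 4 words on either strand (vertical axis, percent), by word (horizontal axis) and by set of genes (colours). The cell cycle word stands at 70.8% in mitosis genes against 14.8% in all genes tested, and the NF-Y word at 74.1% in cholesterol and fatty acid genes against 37.4%.

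The windows of 3 mitosis genes and 2 cholesterol genes are printed because most genes of these groups were lower and their windows hold these words in different numbers, all from GRCm38.p6 and 5′ to 3′ along the gene. Capitals mark the words named above, read on either strand, so that ATTGG is CCAAT and TTCAAA is TTTGAA on the other strand. Cdca3 (chr6:124829926-124830225, plus strand), a mitotic regulator that fell from 8.85 and 8.84 to 7.72 and 7.70, and Kif11 (chr19:37376132-37376431, plus strand) hold both the cell cycle and the NF-Y word, which in Kif11 begin 19 and 45 bases before the start. Nek2 (chr1:191821223-191821522, plus strand) holds the NF-Y word, nearest upstream at 26 bases before the start, and not the cell cycle word. Lss (chr10:76531355-76531654, plus strand) and Hmgcs1 (chr13:119690101-119690400, plus strand) hold the NF-Y word and not the cell cycle word. The Klf word is held by Lss, beginning 155 bases before the start, and by Cdca3, beginning at base 16 after the start.
Cdca3: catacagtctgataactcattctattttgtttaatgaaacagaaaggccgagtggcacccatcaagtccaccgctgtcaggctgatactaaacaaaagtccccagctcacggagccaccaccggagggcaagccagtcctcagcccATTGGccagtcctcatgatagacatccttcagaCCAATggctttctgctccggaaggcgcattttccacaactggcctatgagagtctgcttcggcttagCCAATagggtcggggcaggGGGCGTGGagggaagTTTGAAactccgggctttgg
Kif11: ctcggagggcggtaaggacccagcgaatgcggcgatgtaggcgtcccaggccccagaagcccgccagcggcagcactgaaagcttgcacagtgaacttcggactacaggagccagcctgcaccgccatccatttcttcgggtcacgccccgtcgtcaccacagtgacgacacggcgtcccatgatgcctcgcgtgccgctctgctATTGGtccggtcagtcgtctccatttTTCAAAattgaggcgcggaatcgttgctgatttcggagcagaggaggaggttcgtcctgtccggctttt
Nek2: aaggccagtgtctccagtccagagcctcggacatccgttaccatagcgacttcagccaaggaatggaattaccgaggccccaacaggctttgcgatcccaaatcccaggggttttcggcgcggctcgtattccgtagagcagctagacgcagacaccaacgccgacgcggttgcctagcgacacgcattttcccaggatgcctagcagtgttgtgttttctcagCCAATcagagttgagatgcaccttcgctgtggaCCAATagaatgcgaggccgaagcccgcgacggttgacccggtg
Lss: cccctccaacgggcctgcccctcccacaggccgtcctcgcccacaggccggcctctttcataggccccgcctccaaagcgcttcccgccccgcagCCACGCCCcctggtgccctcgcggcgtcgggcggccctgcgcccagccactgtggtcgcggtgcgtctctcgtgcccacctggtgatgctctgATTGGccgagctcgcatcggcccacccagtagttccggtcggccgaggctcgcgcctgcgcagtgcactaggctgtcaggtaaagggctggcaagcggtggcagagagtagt
Hmgcs1: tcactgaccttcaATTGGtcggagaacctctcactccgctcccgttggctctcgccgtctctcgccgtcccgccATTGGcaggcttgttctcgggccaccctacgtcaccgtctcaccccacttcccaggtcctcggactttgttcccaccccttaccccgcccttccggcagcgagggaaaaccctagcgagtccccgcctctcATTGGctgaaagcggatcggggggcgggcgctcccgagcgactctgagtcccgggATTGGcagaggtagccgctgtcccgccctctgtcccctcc

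Genes of the epidermal differentiation complex, which build the cornified envelope of skin, were higher in 6 and lower in 4 of 36 (27.8% called, 5 and 2 with ordinary variances). The late envelope gene Lce1i rose from 4.46 and 4.40 to 7.60 and 7.02, though near-identical copies of it may share probe signal. Sprr1a and Sprr2h, small proline-rich envelope genes of stressed epithelia, fell from 9.39 and 9.37 to 8.11 and 7.98 and from 6.57 and 6.06 to 4.92 and 4.84. S100a8, a calcium-binding protein of inflamed epithelium, fell from 6.69 and 5.52 to 4.31 and 4.18. Genes of this cluster thus moved in both directions. On the arrays labelled siControl with TGFβ 5 of the group were lower, and Lce1i stood at 4.26 and 4.34.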

How the data were processed

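Total RNA from 8 samples of NMuMG cells, 2 for each combination of siRNA and TGFβ, was hybridised to Affymetrix whole-transcript arrays. The deposited values are log2 levels of 34760 probe sets that the authors made by robust multi-array average, with oligo 1.14.0 according to the submitters' processing notes, and array medians lay between 4.90 and 5.00. Background correction and quantile normalization remove differences in overall signal, so changes are relative to the bulk of genes. Probe sets were named from GEO's platform annotation: 21640 had 1 symbol, 1321 had several and 11799 were not listed and were left out. Where a gene had several (954 genes), its probe set of highest mean was used.

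The 8 arrays were fitted with 1 mean a group in limma 3.58.1 (R 4.3.3; lmFit, eBayes), with 4 residual and 4.93 prior degrees of freedom, as a moderated form of the one-way ANOVA named by the methods. Every adjusted p is limma's, by Benjamini-Hochberg over 19937 genes, with a threshold of 0.05; ± gives the standard error. The script was tested on simulated data. Named genes were Klf4, genes named by the study, the 15 largest increases and decreases, and in each gene list up to 4 called members in each direction and 2 that were not called. Smad7, Pmepa1 and Ldlrad4 fall outside this rule. The comparison, its members and the gene lists were chosen with earlier results of these data known. Alternatives were other spreads, normalizations, filters, thresholds and probe set rules, a replicate block, exchanged labels and leaving out each array. Promoters came from RefSeq (GRCm38.p6).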

Additional observations from a re-analysis of the deposited data

Results flagged for a closer look

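The siKlf4 effect in cells given TGFβ was compared with that in cells without it in the same limma fit, as the former less the latter, and for 25 of the genes named the difference passed an adjusted p of 0.05. Exchanging the labels of the arrays titled siKlf4 without TGFβ and siControl with TGFβ leaves these values as they are, since both groups enter with the same sign. No explanation was tested. The difference was positive on the log2 scale for Mmp10 (1.88), Cxcl5 (1.56), Lce1i (1.39), Sprr2h (1.26), Atf3 (1.16), Bnip3 (1.05), Ltbp1 (1.01), Edn1 (0.96), Cdhr5 (0.93), Tnxb (0.85), Mettl7b (0.83), Sprr1a (0.80) and Rdh10 (0.59). It was negative for Ugt2b34 (-1.52), Elovl6 (-1.24), Has2 (-1.20), Aldh1a1 (-0.98), Itgb6 (-0.93), Nqo1 (-0.87), Kif11 (-0.84), Ifit2 (-0.74), Plxnd1 (-0.69), Cdc6 (-0.69), Mcm10 (-0.64) and Tgfbr2 (-0.63). Most of these calls depended on the setting. Of the 25, 0 were called with ordinary variances, 3 at an adjusted p below 0.01, 2 and 2 without array 1 or 2 labelled siControl with TGFβ, 8 and 3 without array 1 or 2 labelled siKlf4 with TGFβ, 15 and 11 without siControl array 1 or 2, and 17 and 15 without siKlf4 array 1 or 2.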

How the results depend on the processing

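Of the results for the 181 genes named, 3239 of 3257 values under an alternative other than exchanged labels kept direction and side of the threshold, 9 were no longer called, 9 were newly called and 0 turned. Many of these genes were named for large called differences in these same data, so this stability was largely set by the choice. It does not extend to the counts of all genes or of the gene groups. The counts of genes higher and lower were 2037 and 1994 with the replicate block, where 3838 of the 3926 genes called were shared in the same direction. Deviations of equally numbered arrays correlated at 0.38 between siControl and siKlf4 and at -0.05 to 0.04 between the other groups. The arrays were not taken as paired in the main fit. The replicate block fits 1 shift common to all 4 groups, so it cannot take up a shift shared by siControl and siKlf4 alone. Whether these arrays shared such a shift was not tested. The counts were 1484 and 1415 with the 4 arrays alone, 1561 and 1496 with ordinary variances, and 2305 and 2300 with a trended, robust spread. An adjusted p below 0.01 left 1343 and 1284, and a minimum of 1.5-fold left 917 and 887, where Klf4 (-0.54) dropped out. Median centring gave 1826 and 1936. Leaving out 1 array gave 1566 to 1857 higher and 1574 to 1740 lower, with Klf4 at -0.63 to -0.46 and called each time. With exchanged labels the counts were 1158 and 1326, and several genes turned, among them Il33 (1.30), Mmp13 (1.99), Ltbp1 (-1.30), Aldh1a1 (0.80) and Hmgcs1 (0.92). The number of genes whose siKlf4 effect differed with TGFβ was 304, but 760 with a trended, robust spread, 37 at an adjusted p below 0.01, 326 with the replicate block, 28 to 214 without 1 array, and 0 with ordinary variances, where 2400 had an unadjusted p below 0.05. The cause of these shifts was not tested. Signal near background limits dim genes: without the dimmest 30% the counts were 2146 and 2094.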
